A study of Drosophila melanogaster with 4 samples.

Results

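DREF sites on chromosome arm 3R of Drosophila melanogaster were described in Kc167, a cell line of embryonic origin, by ChIP-seq, the sequencing of DNA fragments that an antibody, here a rabbit polyclonal one against DREF, pulls down with their bound protein. Earlier results of these data were known when the sites were chosen. The sites were taken by chromosome name alone, so neither their strength nor their presence in mitosis decided which were included. They are the 241 peaks on 3R in the list from mitotic cells and the 396 peaks on 3R in the list from total cells, that is 399 of the 1958 sites in the lists together. Both conditions share the cell line, the serum-free medium, the antibody and formaldehyde crosslinking, and no other treatment is named in the labels. The labels give 2 mitotic and 2 total libraries, 4 in all, but the authors deposited 1 peak list per condition. There are thus neither replicate values nor read counts, so the depth is unknown and the conditions could not be tested against each other over libraries. The sources used here do not say how mitotic cells were obtained or whether each list was called on reads of its own.

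DREF recognises, through a zinc finger, the DNA replication-related element, a short palindromic sequence found near the starts of many genes for DNA replication and cell growth. The submitters count it among the insulator proteins, which are known for marking borders between chromatin domains. In mitosis many DNA-binding factors leave the condensed chromosomes while others stay at part of their sites, so a comparison of mitotic with total cells asks which sites keep a factor. 3R is the right arm of the third chromosome. Its coordinates run from the centromere to the telomere, and it carries the Antennapedia and bithorax complexes of Hox genes. No genome or annotation of the build of the lists was used, so sites are given by their coordinates and none was given a gene, an exon, an intron or a sequence.

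Most of the DREF sites on 3R were found in mitotic cells too, and most of those missing there were weak sites. Of the 241 mitotic peaks on 3R, 238 overlapped a total peak by at least 1 bp (98.8%, 95% interval 96.4 to 99.7%), against 98.1% of mitotic peaks in the whole list. Of the 396 total peaks on 3R, 237 overlapped a mitotic peak (59.8%, 54.8 to 64.7%), against 56.1% of total peaks in the whole list. Both shares on 3R thus lay near those of the whole lists. The other 159 total peaks on 3R, called total-only below, had no mitotic counterpart. Intervals are exact Clopper-Pearson intervals over peaks taken as independent, and they hold counting error alone.

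**Figure D1:**
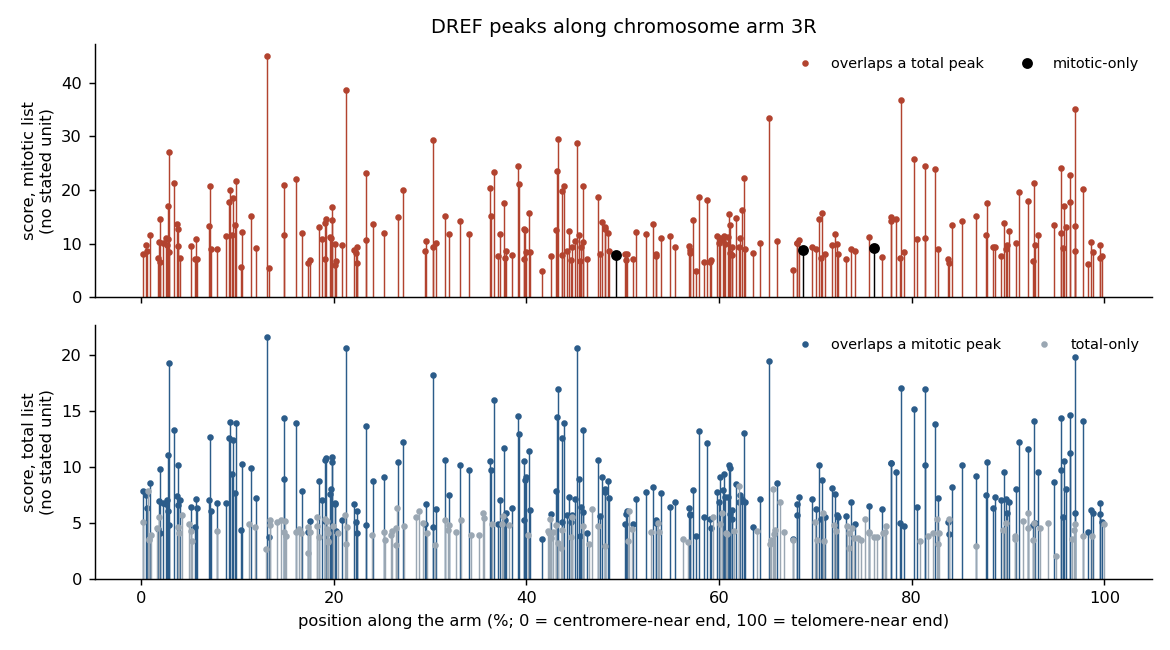
Score of each DREF peak on 3R (vertical axis, no stated unit) against its position along the arm (horizontal axis, percent), for the 241 mitotic peaks above and the 396 total peaks below, with a separate scale in each panel. Black points are the 3 mitotic-only peaks and grey points the 159 total-only peaks, none of which scores above 8.27.

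DREF sites ran along the whole arm. The first peak of the mitotic list lay at 46325 to 47167 with a score of 8.11, inside the first total peak at 46167 to 47202 with a score of 7.85. The last mitotic peak lay at 27811165 to 27811886 and scored 7.78. The last total peak lay farther out at 27893830 to 27894783, scored 4.89 and was total-only. The score is the number that the authors gave each peak, it has no stated unit. It is used here to order peaks within a list and, for overlapping peaks, to describe how the scores of the lists were related. In all, mitotic peaks covered 225 kb and total peaks 421 kb, which is 0.808% and 1.51% of the arm up to the last peak.

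Sites were uneven along the arm, but no bin of 1 Mb was empty in either list. The 27 full bins held 8.56 ± 3.82 mitotic peaks and 14.1 ± 5.13 total peaks (mean and SD over bins, which are parts of 1 arm and not replicates). The variance over bins was 1.70 times the mean in the mitotic list and 1.86 times in the total list. The fullest bin of the total list, at 5000001 to 6000000, held 14 mitotic and 28 total peaks. The bin at 12000001 to 13000000 held 18 mitotic and 26 total peaks, and no other bin held more mitotic peaks. The bin nearest the centromere, at 1 to 1000000, held 16 mitotic and 23 total peaks. These 3 bins were the only ones with 20 or more total peaks. Fewest total peaks, 8 each, lay at 6000001 to 7000000 and at 9000001 to 10000000. These sparse bins differed in the mitotic list, with 7 mitotic peaks in the one and 2 in the other.

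**Figure D2:**
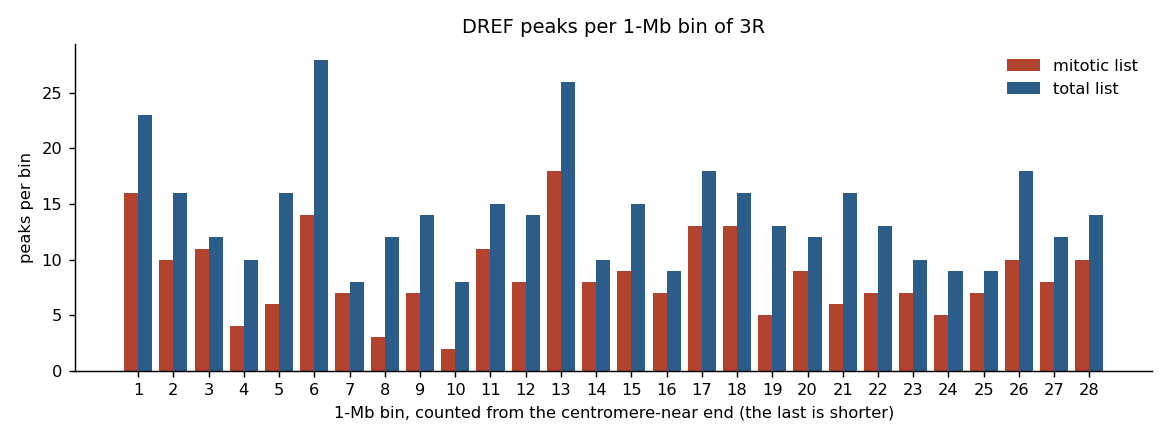
Number of DREF peaks (vertical axis) in each 1-Mb bin of 3R (horizontal axis, counted from the centromere-near end), with mitotic bars left of total bars. Bins 1, 6 and 13 stand above the rest of the total list with 23, 28 and 26 peaks, and bin 10 holds only 2 mitotic peaks.

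From the end of one peak to the start of the next, the median distance was 76.8 kb in the mitotic list (interquartile range 30.0 to 164 kb, 240 gaps) and 39.9 kb in the total list (15.6 to 88.5 kb, 395 gaps). Gaps longer than 200 kb numbered 49 in the mitotic list and 29 in the total list. They made up 53.2% of the arm in the mitotic list and 29.2% in the total list. The mitotic list is the shorter one, so its gaps are longer by construction.

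The longest stretches without a mitotic peak still held DREF sites in total cells. The longest ran for 643 kb between the mitotic peaks at 7589766 to 7590758 and 8233607 to 8234430, and 4 total-only peaks with scores of 4.68 to 6.1 lay in it. The next, of 602 kb, followed the mitotic peak at 9509104 to 9510125 and also held 4 total-only peaks, with scores of 3.9 to 5.9. The third, of 472 kb, began at 18406757 and held 2 total-only peaks with scores of 4.16 and 6.85. Total peaks within a stretch without mitotic peaks are total-only by construction. In these 3 stretches their scores lay on both sides of the arm's median total score of 5.72.

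The longest stretches without a total peak were shorter. Mitotic peaks lay in 2 of the 3 longest, and peaks placed so are mitotic-only by construction. The longest ran for 479 kb between total peaks at 13543538 to 13544713 and 14024171 to 14026119. Inside it the mitotic list had a peak at 13744678 to 13745329, with a mitotic score of 7.81 and 200 kb from the nearest total peak. The second, of 402 kb, followed the total peak at 23763048 to 23764146 and held no mitotic peak. The third, of 386 kb, lay between 19041153 and 19426915. It held the mitotic-only peak at 19156053 to 19158637, which scored 8.83 and lay 115 kb from the nearest total peak. This peak, at 2585 bp, was the widest of the mitotic list on 3R. The remaining mitotic-only peak on 3R lay at 21213881 to 21214551, scored 9.14 and was 18.1 kb from a total peak. All 3 scored below the mitotic median on 3R of 10.85.

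**Figure D3:**
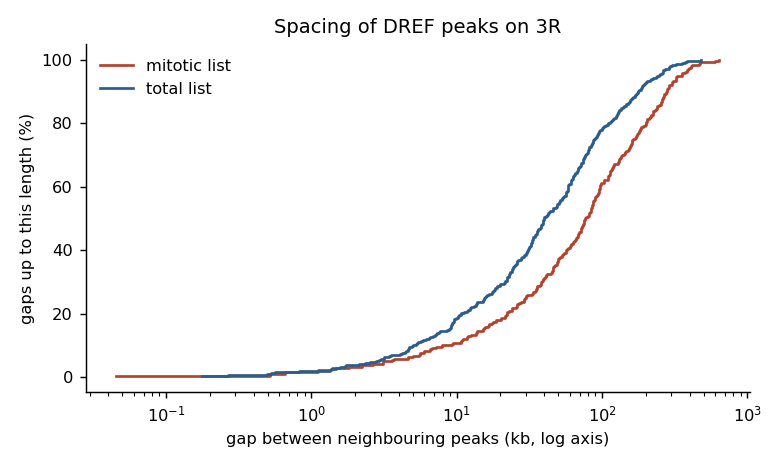
Share of gaps up to a given length (vertical axis, percent) against gap length (horizontal axis, kb, log scale) for the 240 mitotic and 395 total gaps between neighbouring DREF peaks on 3R. The mitotic curve lies to the right of the total curve, with medians of 76.8 and 39.9 kb.

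At the other end of the range, some DREF peaks stood almost side by side. The shortest gap of the mitotic list, 45 bp, parted the peaks at 27044873 to 27045980 and 27046026 to 27047419. In the total list this place was 1 peak, at 27044787 to 27047447. The shortest gap of the total list, 178 bp, parted a total-only peak at 13226720 to 13227612 (total score 4.74) from a shared peak at 13227791 to 13228822 (10.61). The next, 267 bp, parted a shared peak at 16773459 to 16774968 (9.11) from a total-only peak at 16775236 to 16776205 (4.91). In both cases the stronger neighbour was the one with a mitotic peak. At 794808 to 797275 a pair of total peaks 433 bp apart, with total scores of 4.77 and 19.27, were both shared.

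Groups of close sites were mostly pairs. Total peaks with a neighbour no more than 5 kb away formed 37 groups with 77 peaks, of which 34 were pairs and 3 were groups of 3 peaks. In these groups 57.1% of peaks were shared (45.4 to 68.4%, n = 77), against 60.5% of the peaks that stood alone (54.9 to 65.9%, n = 319), and the intervals overlapped. In the group at 5335647 to 5342204 the total scores were 5.35, 5.2 and 10.84. There the first peak was total-only and the others had mitotic scores of 7.17 and 14.63. In the group at 27038635 to 27047447 the total scores were 4.91, 5.9 and 19.86, and again the first peak was total-only. In the group at 4833597 to 4846220 only the last peak was shared, with scores of 6.43 in the mitotic list and 4.19 in the total list, although the first had a total score of 4.66. Shared total peaks lay a median of 21.1 kb from their nearest total neighbour and total-only peaks 18.9 kb, with widely overlapping interquartile ranges (7.23 to 41.8 kb and 6.94 to 37.0 kb).

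By score in the total list, the strongest DREF site of the arm lay at 3635506 to 3636658, in a bin with only 4 mitotic and 10 total peaks. Its scores were 44.94 in the mitotic list and 21.58 in the total list, rank 2 in the whole mitotic list and rank 4 in the whole total list. The site at 5925878 to 5927024, in the fullest bin, scored 38.65 in the mitotic list and 20.66 in the total list. The site at 12623807 to 12625083 had the same total score of 20.66 but a lower mitotic score of 28.75. The double peak at 27044787 to 27047447 scored 35.0 and 13.33 in the mitotic list and 19.86 in the total list. The site at 18181732 to 18182895, scored 33.32 in the mitotic list and 19.48 in the total list. These 5 sites with the highest total scores lay at 13.0%, 21.2%, 45.3%, 97.0% and 65.2% of the arm's length. The order by mitotic score was not the same. The third highest mitotic score on the arm, 36.75, was that of the peak at 22014144 to 22015194, whose total peak scored 17.07, and it was named after its values were seen.

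Strong sites in general were spread along the arm with some long breaks. The strongest 20% of the whole total list included 89 peaks of 3R, which is 22.5% of the arm's total peaks, against 225 of 1202 on the other main arms (18.7%). Fisher's exact test, two-sided and added after these values were seen, gave an odds ratio of 1.26 and p = 0.109, which misses the threshold of 0.05. Their scores were 8.38 to 44.94 in the mitotic list (median 16.95) and 8.5 to 21.58 in the total list (median 10.61). The median gap between them was 196 kb. The longest break between them spanned 2.64 Mb, between 13508858 and 16153186. Within it lay 19 mitotic peaks and 26 total peaks with total scores of 3.27 to 8.21. Of these 26 weaker total peaks 18 were shared (69.2%, 48.2 to 85.7%), so this stretch without strong sites was not one without mitotic sites. Another bin without a strong site, at 20000001 to 21000000, held 6 mitotic and 16 total peaks, and 6 of the 16 were shared.

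Whether a site had a mitotic peak went with its score. On 3R shared peaks had a median total score of 7.26 (interquartile range 5.78 to 10.15) and total-only peaks one of 4.31 (3.81 to 5), a difference of 2.95. Their interquartile ranges did not overlap, while their whole ranges, 3.53 to 21.58 and 2.06 to 8.27, did. With the whole total list cut into 5 equal classes by score, 10 of 78 peaks of 3R in the weakest 20% were shared (12.8%, 6.32 to 22.3%). In the next class 20 of 75 were shared (26.7%, 17.1 to 38.1%), and in the middle class 40 of 70 (57.1%, 44.7 to 68.9%). In the class above it 78 of 84 were shared (92.9%, 85.1 to 97.3%). Among the strongest 20%, 0 of 89 were without a mitotic peak, for which the limit of 3 counts is 3.37%. The exact interval of the share that was shared, as given for the other classes, was 95.9 to 100%. On the other main arms 10.6%, 26.5%, 55.6%, 92.7% and 100% were shared from the weakest to the strongest class, each inside the interval of the same class on 3R.

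The strongest total-only peaks mark where the relation with score broke down. They lay at 17313174 to 17314179 with a total score of 8.27, at 18312360 to 18313439 with 8.06 and at 206476 to 207478 with 7.83. The next lay at 18511763 to 18512774 with 6.85 and at 7415393 to 7416360 with 6.36. Of these 5, 2 lay in the bin at 18000001 to 19000000, where 5 of 13 total peaks were shared. At the weak end, the lowest total score of a shared peak on 3R was 3.53, and 28 total-only peaks scored below it. The depth is unknown, so a site without a mitotic peak was not detected there rather than shown to be empty.

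Along the arm, no steady rise or fall of sharing with the mitotic list was seen from centromere to telomere. In 5 equal parts from the centromere-near to the telomere-near end, 56 of 96, 38 of 69, 54 of 80, 45 of 81 and 44 of 70 total peaks were shared. These are 58.3% (47.8 to 68.3%), 55.1% (42.6 to 67.1%), 67.5% (56.1 to 77.6%), 55.6% (44.1 to 66.6%) and 62.9% (50.5 to 74.1%), and all 5 intervals overlapped. With the arm divided at its midpoint, 113 of 184 total peaks were shared on the telomere-near side (61.4%) and 124 of 212 on the centromere-near side (58.5%). Fisher's exact test over peaks, two-sided, gave an odds ratio of 1.13 and p = 0.608, so no difference between the sides was detected. A narrower count, in the stronger 50% of each list, called a total peak shared only if its mitotic peak was in that 50% too. By this count the direction turned, with 58.3% shared on the telomere-near side and 68.2% on the centromere-near side (odds ratio 0.652, Fisher's exact test, p = 0.148).

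**Figure D4:**
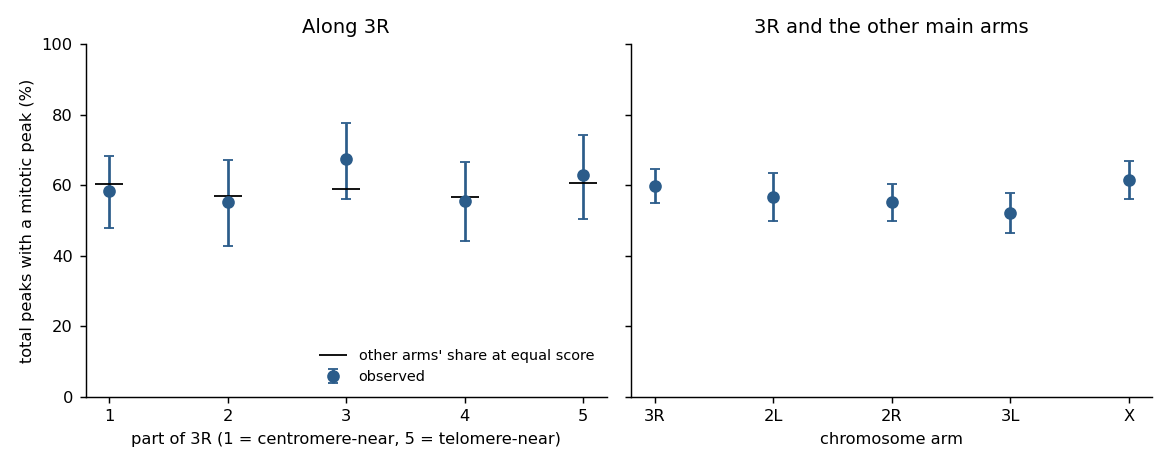
Share of total peaks with a mitotic peak (vertical axis, percent) in 5 equal parts of 3R on the left and on 3R and the other main arms on the right, with exact 95% intervals as bars. Black dashes give the share that each part would have if its peaks were shared as often as peaks of like score on the other arms, and they lie between 56.7 and 60.7%, inside every interval.

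Median scores of the 5 parts lay close together. The median mitotic score of the 5 parts was 11.36, 11.81, 9.52, 10.09 and 11.62, and the median total score was 5.92, 5.46, 5.72, 5.64 and 5.84. The lowest mitotic median and the highest share of shared peaks were both in the middle part. Across peaks the rank correlation of score with position was -0.00909 in the mitotic list (n = 241) and -0.0129 in the total list (n = 396), as a description over peaks that share a library. Sites per part were counted as well, and the differences in number were not tested. The centromere-near part held 56 mitotic and 96 total peaks, the second 38 and 69, the third 55 and 80, the fourth 47 and 81, and the telomere-near part 45 and 70.

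Single bins gave a wide range of shares, each from few peaks, and the bins below were picked after their values were seen. In the bin at 2000001 to 3000000, 11 of 12 total peaks were shared (91.7%, 61.5 to 99.8%), and its median total score of 8.51 was the highest of all bins. In the bin at 6000001 to 7000000, 7 of 8 were shared (87.5%, 47.3 to 99.7%) at a median total score of 5.59. The next bin, at 7000001 to 8000000, had 3 of 12 shared (25%, 5.49 to 57.2%) at a median of 4.61. At 9000001 to 10000000, 2 of 8 were shared (25%, 3.19 to 65.1%) at a median of 5.35. Peaks of like score on the other main arms would give 82.6% in the bin at 2000001 and 56.9% in that at 6000001. They would give 47.0% in the bin at 7000001 and 51.2% in that at 9000001. With 8 or 12 peaks in each bin, all these values lay inside the bin's own interval.

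The order of shared and total-only sites along the arm was close to what their shares alone would give. Of the 395 neighbouring pairs of total peaks, 148 were both shared, 70 both total-only and 177 one of each. The share of shared peaks multiplied out over independent neighbours would give 141, 64 and 190, and the difference was not tested. The longest run of shared peaks had 14 members over 547 kb at 530557 to 1078051, with total scores of 4.05 to 19.27. The next had 10 members over 641 kb at 15861321 to 16502103, with a lower median total score of 5.73 against 7.01 in the first. Runs of 9 and 8 shared peaks lay at 2472085 to 2912807 (441 kb, median total score 10.3) and at 12481564 to 12796027 (314 kb, median 6.78). The longest run of total-only peaks had 6 members over 347 kb at 7069420 to 7416360, with total scores of 2.98 to 6.36. A tight run of 5 total-only peaks lay within 41.4 kb at 5376156 to 5417507, inside the fullest bin of the arm. Another of 5, over 132 kb at 18222739 to 18354929, included the second strongest total-only peak of 3R.

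Where both lists had a peak on 3R, their scores rose together. Over the 238 overlapping pairs Pearson's r was 0.933 and Spearman's rho 0.919, as a description across peaks that share their libraries. Mitotic scores exceeded total scores in 235 pairs, with a median ratio of 1.49 (interquartile range 1.37 to 1.63) and no stated common scale. From the centromere-near to the telomere-near part the median ratio was 1.48, 1.56, 1.49, 1.46 and 1.54, all inside the interquartile range of the arm. The highest ratio, 2.32, was at 6262388 to 6263367, a site below the lower quartile of total scores on the arm (9.46 in the mitotic and 4.08 in the total list). It was followed by 2.28 at 17405407 to 17406517 (16.19 and 7.11) and 2.23 at 6502913 to 6503960 (10.71 and 4.8). The lowest ratio, 0.671, set the weaker of the 2 mitotic peaks of the double site at 27044787 against the whole total peak. The ratio was also below 1 at 5603258 to 5604348 (6.08 and 6.76) and at 11158371 to 11159391 (8.38 and 9.11).

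**Figure D5:**
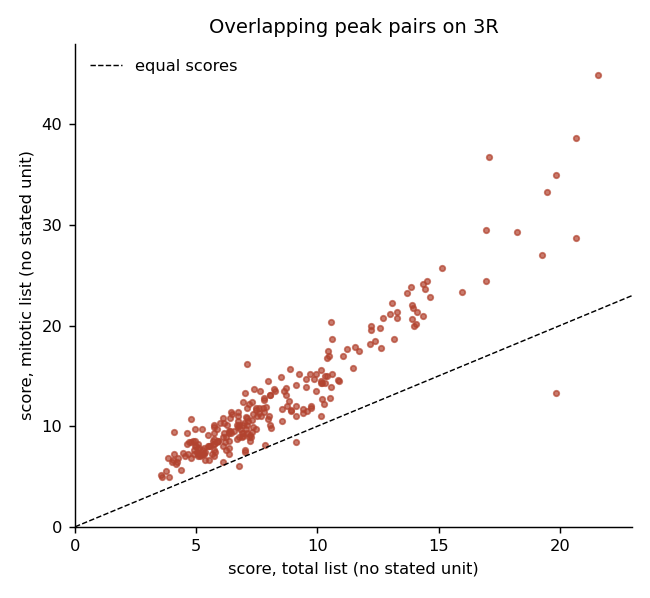
Mitotic score (vertical axis) against total score (horizontal axis), both without a stated unit, for the 238 overlapping peak pairs on 3R. Of the pairs 235 lie above the dashed line of equal scores, and the point far below the rest at a total score of 19.86 is the weaker mitotic peak of the double site near the telomere.

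Every one of the 238 mitotic peaks that overlapped a total peak on 3R lay on or within both its borders. The mitotic peak was narrower in 230 pairs and took a median of 87.2% of the width of the total peak. The lists gave exactly the same start in 30 pairs (12.6%) and the same end in 35 (14.7%), and both borders were identical at 8 sites. These sites include the strongest of the arm and peaks at 1996091 to 1997138 (20.76 in the mitotic and 12.69 in the total list) and at 10216598 to 10217546 (23.38 and 15.97). Whether some reads entered both lists is not known, and the part that common reads may have in the overlap, the scores and the borders was not tested. Peak width was a median of 921 bp in the mitotic list and 1006 bp in the total list.

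Set against the other main arms, no difference of 3R in sharing passed the threshold. The share of total peaks with a mitotic peak was 59.8% on 3R and 56.5% on 2L, 2R, 3L and X together (679 of 1202), a difference of 3.36 points. Fisher's exact test over peaks, two-sided, gave an odds ratio of 1.15 and p = 0.266, short of the threshold. Against single arms, with adjustment over 4 comparisons, the nearest to the threshold was 3L, where 157 of 301 were shared (52.2%, odds ratio 1.37, Fisher's exact test, adjusted p = 0.181, unadjusted p = 0.0452). 2R had 55.1% (Fisher's exact test, adjusted p = 0.410) and 2L 56.7% (adjusted p = 0.651). X had 61.5% and lay above 3R (odds ratio 0.932, Fisher's exact test, adjusted p = 0.651). If the peaks of 3R had been shared as often as peaks of like score on the other arms, 233 of 396 would have been shared (58.7%), against the 237 observed. Peaks are counted as independent in these tests, although neighbours on a chromosome need not be. The sites of 3R were also chosen with earlier results of these data known.

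3R did not hold the longest empty stretches of the main arms. Its longest gap was 643 kb in the mitotic list and 479 kb in the total list. On 2L, 2R, 3L and X the longest gap was 510 to 998 kb in the mitotic list and 690 to 1278 kb in the total list, and only 2R, in the mitotic list, had a shorter one than 3R. These gaps were not tested. The median score on 3R was 10.85 in the mitotic list and 5.72 in the total list. The other arms had 9.90 to 10.47 in the mitotic list and 5.38 to 5.81 in the total list, so 3R lay above them in the mitotic list and among them in the total list, and this was not tested. The separate sequence named 3RHet, which collects heterochromatic sequence of the arm and is not counted above, had 2 mitotic and 4 total peaks, of which 2 were shared.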

How the data were processed

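Per the submitters' processing notes, the alignment of the ChIP-seq reads used Bowtie 0.12.5. The sources used here do not give the peak caller and its settings, the build, or whether libraries were pooled. Sequence names such as Uextra and 3RHet are those of genome Release 5 (dm3). Coordinates are those deposited, with 1 added to each start so that starts are counted from 1. Each deposited list gives every peak its position and a score with no stated unit, so the score was used to order peaks within a list, and ratios between the lists are descriptions with no common scale. Peaks were called shared at an overlap of at least 1 bp. Shares carry exact Clopper-Pearson 95% intervals, a count of 0 was given the limit of 3 counts, and differences in sharing were tested by Fisher's exact test, two-sided, at 0.05. Position was taken from the peak's midpoint, and the arm ended at the last peak end. For sharing at equal score, the total list was divided into 10 equal parts by score. Only a Release 6 gene table was present, so no site was named from it, and the planned counts of the DREF motif were not made. Named sites followed a fixed rule: the 5 strongest shared and total-only peaks, every mitotic-only peak, the outermost peaks, the 3 longest and 3 shortest gaps of each list, the fullest bins, the extremes of score ratio and width, the longest runs and the largest close groups. Bins, runs and 1 strong mitotic site beyond these were chosen after their values were seen. The members and lists were chosen with earlier results of these data known. Overlap and Fisher's test were tested on simulated data: for the sharing of 3R (simulated arms of 400 peaks) the planted overlaps were recovered in 50 of 50 draws, and 2 of 50 draws without a difference passed 0.05. The simulated peaks lay farther apart than the closest peaks of 3R and were independent, so close neighbours and dependence between them were not covered. Computation used Python 3.11.15 with scipy 1.17.1, pandas 2.3.3 and numpy 2.4.6, and figures matplotlib 3.10.9.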

Additional observations from a re-analysis of the deposited data

How the results depend on the processing

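Of 35 alternative values for 3R, 26 changed neither direction nor call, nor moved beyond the 95% interval, the SD over bins or 1.5 times. The 26 include values at an overlap of at least 50% of the shorter peak. This setting could not change sharing on 3R, where every overlapping mitotic peak lay within its total peak. The 26 also include mean peaks per Mb in shorter, longer or moved bins, which peak number and arm length nearly fixed in advance. Median gaps from midpoint to midpoint, also among them, differ from the main ones only by about a peak's width. These values thus say little about how far the results depend on the settings. With midpoints no more than 250 bp apart in place of overlap, 95.4% of mitotic peaks on 3R had a total peak. In the stronger 50% of each list, which holds fewer peaks by construction, density was 4.70 mitotic and 7.26 total peaks per Mb. Median gaps there were 144 kb in the mitotic list and 86.8 kb in the total list. A total peak counted there as shared only if its mitotic peak was in the stronger 50% too. By this narrower count the odds ratio of sharing for the telomere-near against the centromere-near side of the arm turned to 0.652, and the cause was not tested. In the full lists, the odds ratio of 3R was 0.932 against X alone, while it was 1.15 against the other main arms together. None of these odds ratios passed the threshold, before or after. Shared peaks were also wider than total-only peaks, by a median of 91.0 bp. The highest and lowest share of shared peaks differed by 12.4 points over 5 parts of the arm and by 28.0 points over 10, with fewer peaks in each; this division into 10 was added later, as was a limit on score that kept the call. No paired analysis was possible because the lists hold nothing for single libraries, none of which could be left out either. Depth is unknown and limits what a missing peak can show.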

Other observations

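Peak width on 3R ran from 528 to 2585 bp in the mitotic list and from 731 to 2661 bp in the total list. The narrowest mitotic peak, at 18406230 to 18406757 with a score of 10.47, began 321 bp inside the start of its total peak at 18405909 to 18406928 (score 8.53). It also bordered the third longest mitotic gap of the arm. The narrowest total peak, at 12439771 to 12440501, scored 3.76 and was total-only. The widest total peak was the double site at 27044787 to 27047447, whose mitotic peaks were 1108 and 1394 bp wide.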
